A study of Homo sapiens with 72 samples.

Results

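The 9 genes described here encode components of B cell receptor signalling: CD79A, CD79B, LYN, SYK, BTK, BLNK, PLCG2, PIK3CD and BANK1. They form a list of names that was located with GENCODE 44 on hg38 among 20033 protein-coding genes. The rule that located them used no measured value, but the genes were chosen with earlier results of these data known. Histone H3 marks were profiled over them by Cut&Tag, in which an antibody guides a transposase to a mark so that the DNA beside it can be amplified and sequenced. The marks were H3K4me2, found at active starts and enhancers, H3K4me3, found at active starts, and H3K27me3, the mark of Polycomb silencing. The cells were Raji, an Epstein-Barr virus-positive Burkitt lymphoma line, and NALM6 and REH, which are B-precursor acute lymphoblastic leukemia lines. Each line was left untreated or kept with 1 nM bryostatin, for a day by the paper's account. Each of the 18 combinations of line, treatment and mark had 3 libraries, which makes 54. Bryostatin is a macrolide that binds the C1 domain of protein kinase C. Burkitt lymphoma is represented by Raji alone, and the labels do not say whether the 3 libraries of a group came from separate cultures, so p-values measure only the spread between these libraries.

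The B cell receptor is a surface immunoglobulin held in the membrane with the CD79A-CD79B dimer, whose cytoplasmic tails carry the tyrosine motifs of the receptor. LYN, a Src-family kinase, phosphorylates those tails, and SYK binds them and phosphorylates the adaptor BLNK, which brings BTK to its substrate PLCG2. PLCG2 makes diacylglycerol, the natural ligand of the protein kinase C site that bryostatin occupies, while PIK3CD, a catalytic subunit of phosphoinositide 3-kinase, makes the lipid that recruits BTK. BANK1 is a B cell scaffold that binds LYN. Precursor B cells carry a pre-receptor with surrogate light chains, and mature B cells carry the complete receptor.

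The values below are total signals of the deposited peaks, that is, coverage added up along each peak, divided by that of the median region of the same mark in the same library, so that 1 is a typical region. A start peak is a peak within 1 kb of any annotated start of the gene, and a gene's signal is that of all peaks over the gene and 3 kb on each side. In the 48 libraries whose scale gives the number of mapped reads, there were 5.12 to 47.9 M mapped reads, with a median of 18.8 M. The 6 libraries of NALM6 replicate 1 carry another scaling and shorter peaks. The counts of calls between NALM6 and the other lines, and some of the differences, are also given without them. The other differences that involve NALM6 include them. For H3K27me3 in Raji the number of peaks ranged from 819 to 101702. Untreated replicate 2 of H3K27me3 in Raji stood apart: 57% of all protein-coding genes had a start peak in it and 81.4% of those also had an H3K4me3 start peak in the same-numbered H3K4me3 library, against 10.98% to 28.3% in the other 17 libraries of the mark. In bulk libraries, fewer cells with a mark and less of the mark per cell cannot be told apart.

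The lines carried H3K4me3 at the starts that mark their stage. In untreated Raji all 7 B lineage markers had a start peak in at least 2 of 3 libraries and 1 of 5 precursor B markers did. CD79A and CD79B are 2 of the 7, so the list is not independent of the genes described here. NALM6 had 6 of 7 and 5 of 5, and REH had 5 of 7 and 4 of 5. MS4A1, which encodes the mature B cell antigen CD20, had a start peak in the 3 Raji libraries and in none of NALM6 or REH. None of the 4 T cell, 4 myeloid and 3 erythroid markers reached 2 of 3 libraries in any line, and their summed signal was 0 except for 0.0142 of the myeloid list in REH.

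Nearly all of the 9 genes carried the active marks. H3K4me2 start peaks were present in at least 2 of 3 libraries at all 9 genes in every line and treatment, where 42.5% to 57.2% of all protein-coding genes had one. H3K4me3 start peaks were present at 9 genes in Raji with either treatment, at 8 in untreated and 7 in bryostatin-treated NALM6, and at 7 in untreated and 8 in bryostatin-treated REH, where 42.8% to 52.9% of all genes had one. H3K27me3 start peaks were present at LYN and BANK1 in REH, at BANK1 in NALM6 and at none of the 9 in Raji, where 4.19% to 16.1% of all genes had one in the 6 groups. The atypical Raji library for H3K27me3 was the only one of its line with such peaks at any of the genes, at 7 of the 9. A missing peak in a shallow library does not show that the mark was absent.

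**Figure D1:**
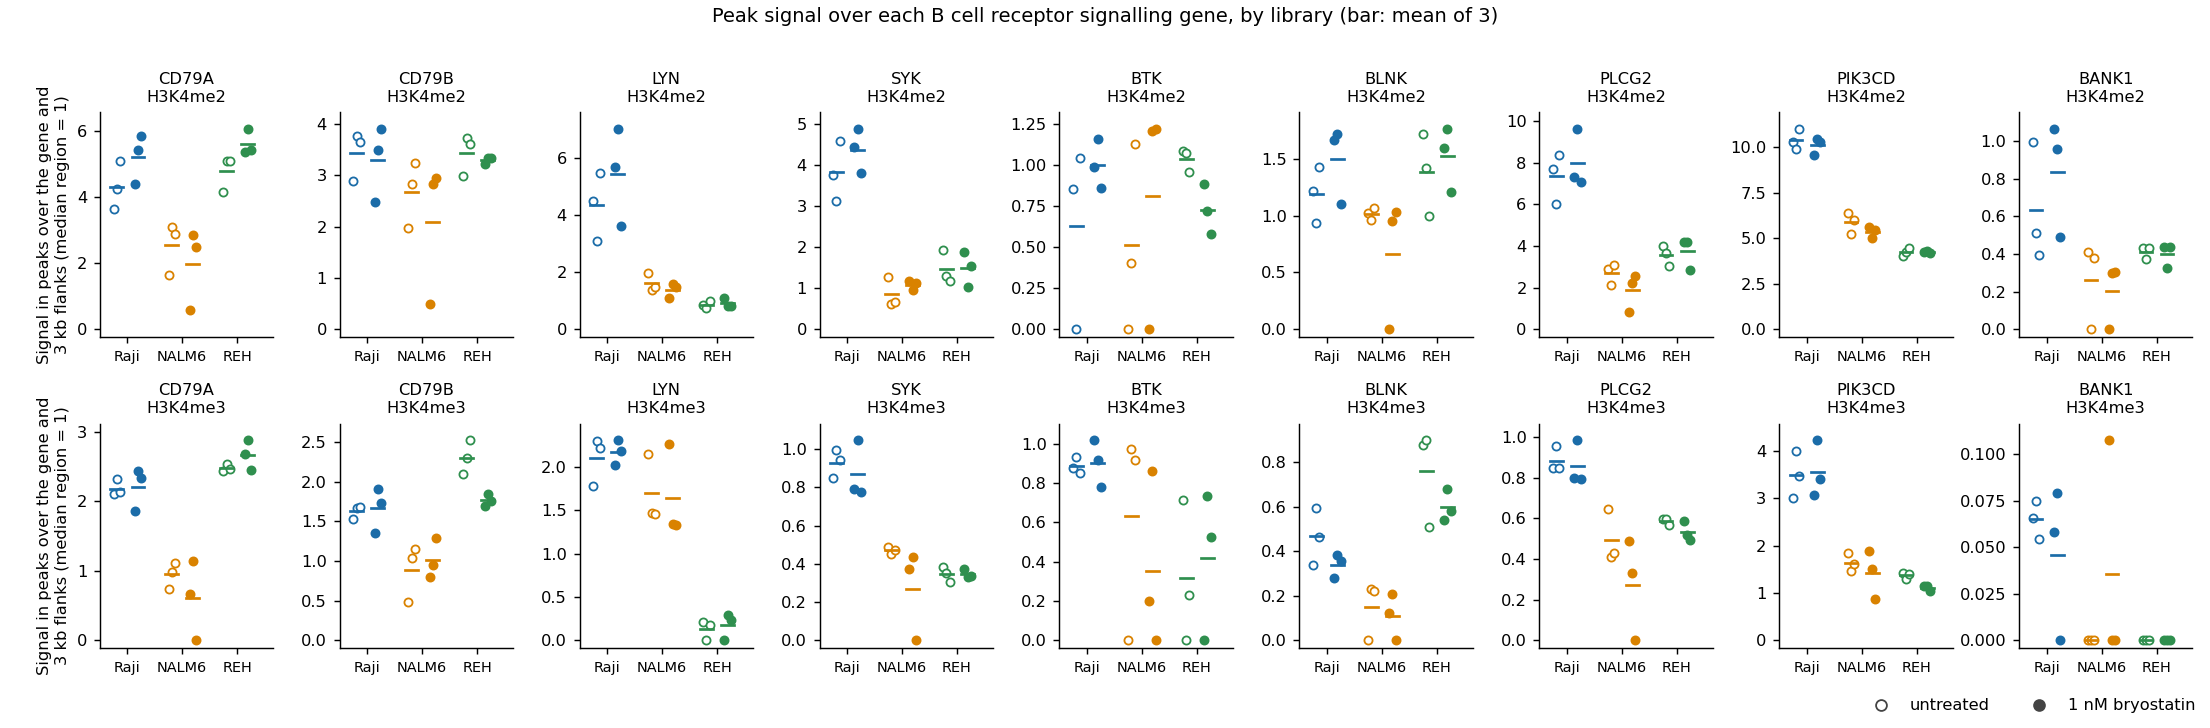
Signal in peaks over each of the 9 genes with 3 kb flanks, on the y axis relative to the median region of the mark, for H3K4me2 in the upper row and H3K4me3 in the lower. Each point is 1 library of Raji, NALM6 or REH, open when untreated and filled after 1 nM bryostatin, and bars are means of 3. For H3K4me2, every Raji library lay above every NALM6 and REH library at LYN, SYK, PLCG2 and PIK3CD, and for H3K4me3 CD79A and CD79B were lowest in NALM6.

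The stretches below lie just before starts whose marks are compared between lines, with a pair for PIK3CD to show how unlike its own starts are. No BTK start region entered the fits between lines, so differences there were not tested. They are the 250 bases before a RefSeq start, read 5′ to 3′ on the gene's strand from the RefSeq promoter table for GRCh38.p14, in which 7 of the 9 genes have an entry. Capitals mark a match to the E-box CAGGTG on either strand. The SYK stretch precedes a RefSeq start upstream of its MANE Select start, the transcript start chosen by Ensembl and RefSeq together.
CD79A, chr19:41877029-41877278, + strand: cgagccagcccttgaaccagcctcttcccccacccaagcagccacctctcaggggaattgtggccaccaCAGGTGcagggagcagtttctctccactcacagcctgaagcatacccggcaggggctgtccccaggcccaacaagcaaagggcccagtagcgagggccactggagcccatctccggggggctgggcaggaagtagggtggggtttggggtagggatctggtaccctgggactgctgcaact
BLNK, chr10:96271570-96271819, - strand: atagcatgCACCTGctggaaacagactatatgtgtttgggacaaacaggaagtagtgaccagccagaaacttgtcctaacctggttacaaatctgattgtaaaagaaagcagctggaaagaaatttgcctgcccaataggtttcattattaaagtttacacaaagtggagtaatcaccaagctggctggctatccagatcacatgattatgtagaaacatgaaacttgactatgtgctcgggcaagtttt
BTK, chrX:101386192-101386441, - strand: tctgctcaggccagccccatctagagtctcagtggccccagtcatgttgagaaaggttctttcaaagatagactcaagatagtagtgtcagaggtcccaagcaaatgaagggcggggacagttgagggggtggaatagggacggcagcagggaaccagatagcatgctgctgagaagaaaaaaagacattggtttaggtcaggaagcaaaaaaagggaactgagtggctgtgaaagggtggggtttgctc
SYK, chr9:90801350-90801599, + strand: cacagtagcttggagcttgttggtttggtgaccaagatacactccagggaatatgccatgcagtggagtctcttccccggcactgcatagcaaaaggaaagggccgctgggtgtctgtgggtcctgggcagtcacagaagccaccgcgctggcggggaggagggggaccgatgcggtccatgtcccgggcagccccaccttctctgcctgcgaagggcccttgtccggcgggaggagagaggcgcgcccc
PIK3CD at the MANE Select start, chr1:9651481-9651730, + strand: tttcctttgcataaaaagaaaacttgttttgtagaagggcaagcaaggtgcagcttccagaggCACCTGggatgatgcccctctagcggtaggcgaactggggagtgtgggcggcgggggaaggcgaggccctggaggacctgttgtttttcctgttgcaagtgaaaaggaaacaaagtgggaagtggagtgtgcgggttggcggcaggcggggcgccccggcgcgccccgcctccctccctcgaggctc
PIK3CD at the downstream start, chr1:9689294-9689543, + strand: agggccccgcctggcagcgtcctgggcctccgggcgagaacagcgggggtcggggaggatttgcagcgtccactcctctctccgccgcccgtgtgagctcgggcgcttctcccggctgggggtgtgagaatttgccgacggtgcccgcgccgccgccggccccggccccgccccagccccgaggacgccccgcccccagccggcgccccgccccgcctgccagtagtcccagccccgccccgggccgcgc

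The 6 stretches differed in CpG content. BLNK held 1 CpG, BTK 2 and CD79A 4, while the SYK stretch held 13, that at the MANE Select start of PIK3CD 14 and that at its downstream start 33. The stretch before the MANE Select start of SYK, which is not shown, held 32. The median over the 35116 promoters of the table was 11 CpG and a GC content of 58%. The 6 motifs were searched on both strands in every 250-base stretch: the E-box CAGGTG, the AP-1 site TGANTCA, the octamer ATGCAAAT, the ETS core CCGGAA, the TATA element TATAAA, and the EBF1 palindrome of TCCC and GGGA with 2 bases between them. The E-box lay 181 bases before the CD79A start, 242 before BLNK and 187 before the MANE Select start of PIK3CD. It also lay 204 bases before the MANE Select start of SYK and 139 before an upstream start of PLCG2, neither of which is shown, and 17.5% of all promoters hold it. None of the other 5 motifs matched the 13 stretches of the 7 genes. They occur in 6.57% of all promoters for AP-1, 1.63% for the octamer, 14.5% for ETS, 10.7% for TATA and 1.06% for EBF1.

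CD79A and CD79B, the signalling chains of the receptor, carried both active marks in all 3 lines, with the lowest H3K4me3 in NALM6. The CD79A peak also covers the start of ARHGEF1 downstream, and that of CD79B covers an overlapping read-through gene. Merged over all 18 H3K4me2 libraries, the CD79A region spans 30520 bp and also holds the start of RPS19. The signals of CD79A and CD79B therefore cannot be assigned to 1 gene. For H3K4me3 the signal over CD79A was 2.1, 2.31 and 2.13 in the untreated Raji libraries, 0.74, 0.987 and 1.11 in those of NALM6 and 2.43, 2.54 and 2.47 in those of REH. The NALM6 libraries lay below both other lines, with no overlap, and Raji lay below REH. Over CD79B it was 2.1, 2.3 and 2.52 in REH, 1.53, 1.66 and 1.69 in Raji and 0.489, 1.03 and 1.15 in NALM6, again with no overlap between lines. In the region-wise fits by limma with Benjamini-Hochberg adjustment, H3K4me3 was 2.54-fold higher in REH than in NALM6 at CD79A (chr19:41876661-41885560, log2 difference of NALM6 minus REH -1.34, SE 0.15, adjusted p = 0.00508). It was 2.63-fold higher at CD79B (chr17:63927821-63933790, -1.40, SE 0.30, adjusted p = 0.0397). Without NALM6 replicate 1 these differences were -1.17 and -1.01. The call at CD79B ended without NALM6 replicate 2 or without any 1 of the REH libraries, and no left-out library ended that at CD79A.

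Between Raji and REH the direction for the receptor chains depended on the measure. The total H3K4me3 signal at CD79B was 1.42-fold lower in Raji (log2 -0.50, SE 0.09, adjusted p = 0.00159), while its maximum signal was 0.18 higher on the log2 scale (SE 0.26, adjusted p = 0.646). At CD79A the total H3K4me3 difference was -0.20 (SE 0.07, adjusted p = 0.0506) and that of the maximum 0.47 (SE 0.19, adjusted p = 0.103). For H3K4me2 the maximum passed the test in Raji at CD79A (0.50, adjusted p = 0.0409) and CD79B (0.49, adjusted p = 0.032), where the totals went the other way without passing (-0.28 and -0.10). The H3K4me2 total at CD79A was 1.64-fold higher in Raji than in NALM6 (log2 0.71, SE 0.21, adjusted p = 0.0499) and 1.93-fold higher in REH than in NALM6 (adjusted p = 0.0283). The first call ended without NALM6 replicate 2 or any 1 Raji library, and its difference was 0.43 without NALM6 replicate 1, while the second ended without NALM6 replicate 2 or any 1 REH library. CD79B passed neither H3K4me2 comparison with NALM6.

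LYN, the kinase that begins the cascade, differed between lines in the kind of mark at its start as well as in the amount. Its H3K4me3 start signal was 1.75, 2.3 and 2.22 in untreated Raji and 2.15, 1.47 and 1.46 in untreated NALM6. In untreated REH it was 0.208 in replicate 1 and 0.174 in replicate 3, and replicate 2 had no peak. With bryostatin the 3 REH libraries held no peak, 0.293 and 0.237. H3K27me3 showed the opposite order, with a start peak in all 6 REH libraries, at 0.245, 0.219 and 0.255 untreated and 0.201, 0.148 and 0.14 with bryostatin. None of the 6 NALM6 libraries had an H3K27me3 peak at the LYN start, and in Raji the only peak was that of the atypical library, at 0.32. A second H3K27me3 region inside LYN, 33456 to 35615 bp downstream of the start, was called in 5 of 6 REH libraries and in none of the other lines. The marks were measured in separate libraries, so whether both lie on the same REH molecules cannot be told.

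The H3K4me2 peak at the LYN start remained in REH but was narrower. Its called length in untreated libraries averaged 6013 bp in Raji, 3046 bp in NALM6 with the shorter peaks of replicate 1 included, and 2500 bp in REH. The total signal was 2.78, 2.66 and 3.11 in Raji and 0.865, 0.753 and 0.979 in REH, which is 3.1-fold higher in Raji (chr8:55878451-55886620, log2 1.63, SE 0.12, adjusted p = 2.47e-07). The maximum signal differed by 0.35 (SE 0.16, adjusted p = 0.0872) and the mean per called base by -0.02, so the difference lay in the called length. Raji libraries were the shallower, with 6.7 to 13.9 M reads against 13.7 to 18.8 M in REH. Between Raji and NALM6 the H3K4me2 total was 1.73-fold higher in Raji (log2 0.79, SE 0.20, adjusted p = 0.025), and leaving out any 1 of 5 of the 6 libraries, each but NALM6 replicate 1, ended the call. An H3K4me2 region at a second annotated LYN start, 57566 to 61795 bp downstream, was called in all 6 Raji libraries, at 0.443 to 0.813, and in no library of NALM6 or REH. Over treated and untreated libraries together, Raji had 7 H3K4me2 regions away from any start within LYN in at least 2 of 6 libraries, and NALM6 and REH had 0. Those at 21016 to 22735 bp and 94596 to 97325 bp downstream were called only with bryostatin. Untreated replicate 2 of Raji had none of the 7.

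BANK1, the scaffold that binds LYN, carried the least H3K4me3 of the 9 genes. Its H3K4me3 start signal was 0.066, 0.075 and 0.0545 in untreated Raji and 0.0581 and 0.079 in 2 of the 3 treated libraries, and there was no H3K4me3 start peak in any of the 12 NALM6 and REH libraries. H3K4me2 was present in 6 of 6 Raji, 4 of 6 NALM6 and 6 of 6 REH libraries, with an untreated mean of 0.413 ± 0.0332 (SD, n = 3) in REH and 0.496 ± 0.0967 in Raji over the region at the MANE Select start. Raji minus REH did not pass the test there (log2 0.16, SE 0.17, adjusted p = 0.485). H3K27me3 peaks were called at the BANK1 start in all 6 REH libraries, at 0.0523 to 0.102, in 4 of 6 NALM6 libraries, at 0.0277 to 0.066, and in no Raji library. The 2 NALM6 libraries without it were those of replicate 1, which held 590 and 1444 H3K27me3 peaks against 7219 to 78673 in the other 4. Few H3K27me3 peaks were also called in Raji untreated replicate 1 and treated replicates 1 and 2, at 819, 3424 and 2778.

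**Figure D2:**
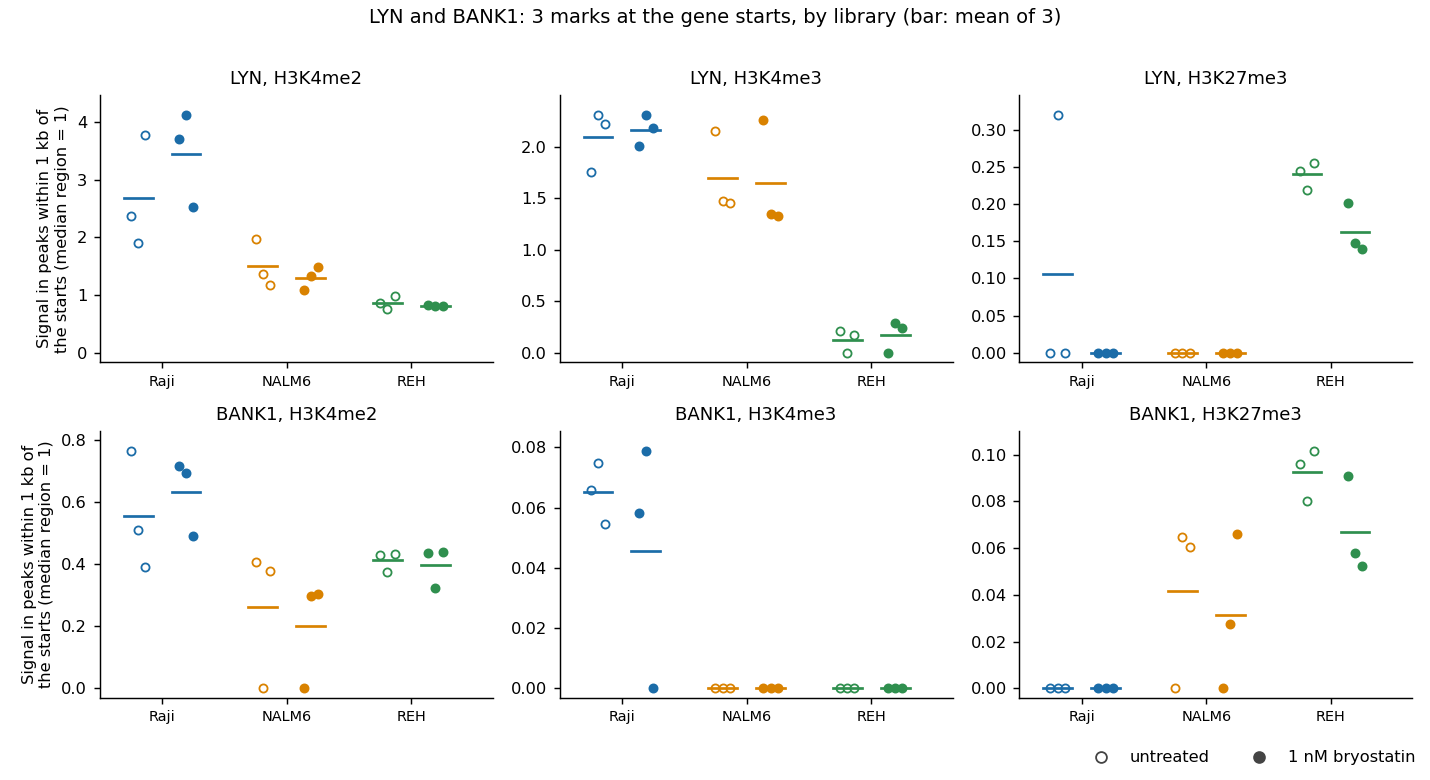
Signal of peaks within 1 kb of the annotated starts of LYN (upper row) and BANK1 (lower row) for H3K4me2, H3K4me3 and H3K27me3, on the y axis relative to the median region of each mark. Points are libraries, open untreated and filled with 1 nM bryostatin, and bars are means of 3. In REH both genes have H3K27me3 in 6 of 6 libraries. H3K4me3 at LYN is lowest in REH, and at BANK1 neither NALM6 nor REH has an H3K4me3 start peak. The single Raji point for H3K27me3 at LYN, at 0.32, is the atypical library.

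SYK, the kinase recruited to the phosphorylated tails, was more strongly marked in Raji. H3K4me3 over its start region was 0.698, 0.786 and 0.789 in untreated Raji, 0.486, 0.452 and 0.473 in untreated NALM6 and 0.383, 0.352 and 0.304 in untreated REH. The 3 lines did not overlap. Raji exceeded REH 2.19-fold (chr9:90799981-90806140, log2 1.13, SE 0.11, adjusted p = 2.07e-05), also by the maximum (0.73, adjusted p = 0.0133) but not by the mean per called base (-0.03). Raji exceeded NALM6 1.53-fold in total (log2 0.62, SE 0.14, adjusted p = 0.0227), while the mean per called base went the other way (-0.51) and leaving out any 1 of the 6 libraries but NALM6 replicate 1 ended the call. H3K4me2 at the SYK start was 2.38-fold higher in Raji than in REH (log2 1.25, SE 0.14, adjusted p = 7.24e-06), with a maximum that differed by 0.20 (adjusted p = 0.367). A second SYK start, 24312 to 29531 bp downstream of the MANE Select start, had H3K4me3 in all 6 Raji libraries, at 0.153 to 0.247, and in no library of NALM6 or REH.

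BTK, the kinase that activates PLCG2, had low and often uncalled peaks. Of its 19 annotated starts, called peaks lay at the MANE Select start and at one at -4605 bp from it, 28 bp from the start of RPL36A on the other strand. Another peak within the 3 kb flank lies at the start of another gene, TIMM8A, and counts in the gene body signal. H3K4me3 at the MANE Select start was 0.37, 0.377 and 0.317 in untreated Raji, 0.288 and 0.288 in NALM6 replicates 2 and 3, and 0.165 in REH replicate 1, with no peak in the other NALM6 and REH libraries of those groups. At the upstream start, shared with RPL36A, untreated Raji had 0.213, 0.243 and 0.224, NALM6 replicates 2 and 3 had 0.345 and 0.303, and REH replicate 1 had 0.229. Because several libraries had no peak, no BTK start region entered the H3K4me3 fits between lines. For H3K4me2 REH had the MANE Select peak in 6 of 6 libraries, at 0.395 to 0.58, and Raji in 5 of 6, at 0.346 to 0.496 where called.

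BLNK, the adaptor that joins SYK to BTK and PLCG2, had a higher mean H3K4me3 signal in REH than in the other lines, as did CD79A and CD79B. Its H3K4me3 start signal was 0.878, 0.899 and 0.51 in untreated REH and 0.34, 0.597 and 0.465 in untreated Raji, and NALM6 had no peak, 0.231 and 0.224. Replicate 3 of REH overlapped the Raji values. The signal was 1.62-fold higher in REH than in Raji (chr10:96267801-96274110, log2 -0.70 for Raji minus REH, SE 0.23, adjusted p = 0.0299), and the maximum differed by -1.01 (SE 0.18, adjusted p = 0.00439). Leaving out REH replicate 1 or 2, or Raji replicate 1 or 3, ended the call, with an adjusted p of up to 0.0991. H3K4me2 at BLNK did not pass the test in any comparison of lines, at -0.26, 0.31 and -0.52 for Raji minus REH, Raji minus NALM6 and NALM6 minus REH. The BLNK stretch shown above, with 1 CpG, is thus at a start that carried H3K4me3 of up to 0.899 times the median region.

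PLCG2, the phospholipase of the cascade, carried broad H3K4me2 and little H3K4me3. Over the gene the H3K4me2 signal was 7.71, 6 and 8.36 in untreated Raji, 4, 3.67 and 3.02 in REH and 2.89, 2.14 and 3.09 in NALM6, while H3K4me3 was 0.847, 0.954 and 0.849 in Raji and lower in the other lines. Raji lay above both other lines for both marks. Most of the H3K4me2 lay downstream of the MANE Select start. Untreated Raji averaged 4.08 ± 0.918 (SD, n = 3) in an inner region 26920 to 65399 bp downstream of it. At the MANE Select start the mean was 1.84 ± 0.258. The inner region and one at 15220 to 21289 bp also lie at annotated starts of PLCG2. H3K4me2 at the start was 2.11-fold higher in Raji than in REH (chr16:81778471-81786780, log2 1.08, SE 0.12, adjusted p = 1.04e-05), but the mean per called base went the other way (-0.41, adjusted p = 0.0845) and the called length averaged 5713 bp against 2590 bp. The region from 15350 bp downstream was 1.48-fold higher in Raji than in REH (log2 0.56, SE 0.14, adjusted p = 0.00591) and 2.15-fold higher than in NALM6 (log2 1.10, SE 0.19, adjusted p = 0.00583). A part of the inner region, chr16:81820181-81829000, was 1.96-fold higher in Raji than in NALM6 (log2 0.97, SE 0.19, adjusted p = 0.0106), but its mean per called base was lower (-0.27) and the call ended without Raji replicate 1 or 3. Between Raji and REH the inner region chr16:81820181-81833500 did not pass (1.05-fold, log2 0.08, SE 0.12, adjusted p = 0.627). H3K4me3 at the start was 1.42-fold higher in Raji than in REH (log2 0.51, SE 0.09, adjusted p = 0.00097), and its maximum differed by 0.29 (adjusted p = 0.126).

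At PIK3CD, the kinase subunit that makes the lipid BTK binds, the differences between lines varied from start to start. It has 22 annotated starts, and the peaks at them form 4 groups for H3K4me2: one around the most upstream start at -21842 bp from the MANE Select start, one at the MANE Select start itself, and downstream ones at 31790 to 39419 bp and 63300 to 68869 bp. At the MANE Select start no pair of lines passed the test for H3K4me3, at 1.34, 1.67 and 1.52 in untreated Raji, 1.33, 1.31 and 1.41 in REH and 1.52, 1.14 and 1.12 in NALM6. Raji and REH differed there by 0.16 on the log2 scale (SE 0.09, adjusted p = 0.174). H3K4me2 there was 1.37-fold higher in Raji than in REH (log2 0.45, SE 0.11, adjusted p = 0.00406), while the mean per called base went the other way (-0.36).

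The upstream PIK3CD start was marked most strongly in Raji, with an untreated H3K4me2 mean of 5.27 against 1.72 in NALM6 and 1.46 in REH. Its H3K4me3 signal was 1.32, 1.68 and 1.5 in untreated Raji, 0.319, 0.325 and 0.452 in NALM6, and in REH 0.0932 in replicate 1 with no peak in the other 5 libraries. Raji exceeded NALM6 3.95-fold (chr1:9625531-9631980, log2 1.98, SE 0.18, adjusted p = 0.000465), with 1.71 by the maximum (adjusted p = 0.00591). For H3K4me2 Raji exceeded REH 3.3-fold (log2 1.72, SE 0.11, adjusted p = 5.95e-08) and NALM6 2.91-fold (log2 1.54, SE 0.17, adjusted p = 0.000778), and both differences also passed by the maximum and by the mean per called base. NALM6 and REH differed by 0.22 (SE 0.18, adjusted p = 0.454).

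The downstream PIK3CD starts also differed between lines. At the nearer group, H3K4me2 was 2.09, 2.16 and 2.15 in untreated Raji, 1.63, 1.2 and 1.18 in untreated NALM6 and 0.37, 0.357 and 0.463 in untreated REH. Raji exceeded REH 5.08-fold (chr1:9685391-9690370, log2 2.34, SE 0.13, adjusted p = 1.83e-08) and NALM6 exceeded REH 3.36-fold (chr1:9686261-9691150, log2 1.75, SE 0.20, adjusted p = 0.00251). Raji and NALM6 differed by 0.64 (SE 0.19, adjusted p = 0.0514), and by 0.73 without NALM6 replicate 1 (adjusted p = 0.00067). H3K4me3 followed in Raji, at 0.344, 0.642 and 0.45, and was called in 2 of 6 NALM6 libraries and in none of REH. This is the start whose stretch above holds 33 CpG. At the farther group H3K4me2 was called in 5 of 6 NALM6 and 6 of 6 REH libraries, at 0.384 to 0.971 where called, and in none of Raji, and NALM6 minus REH did not pass the test (log2 0.81, SE 0.28, adjusted p = 0.127).

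**Figure D3:**
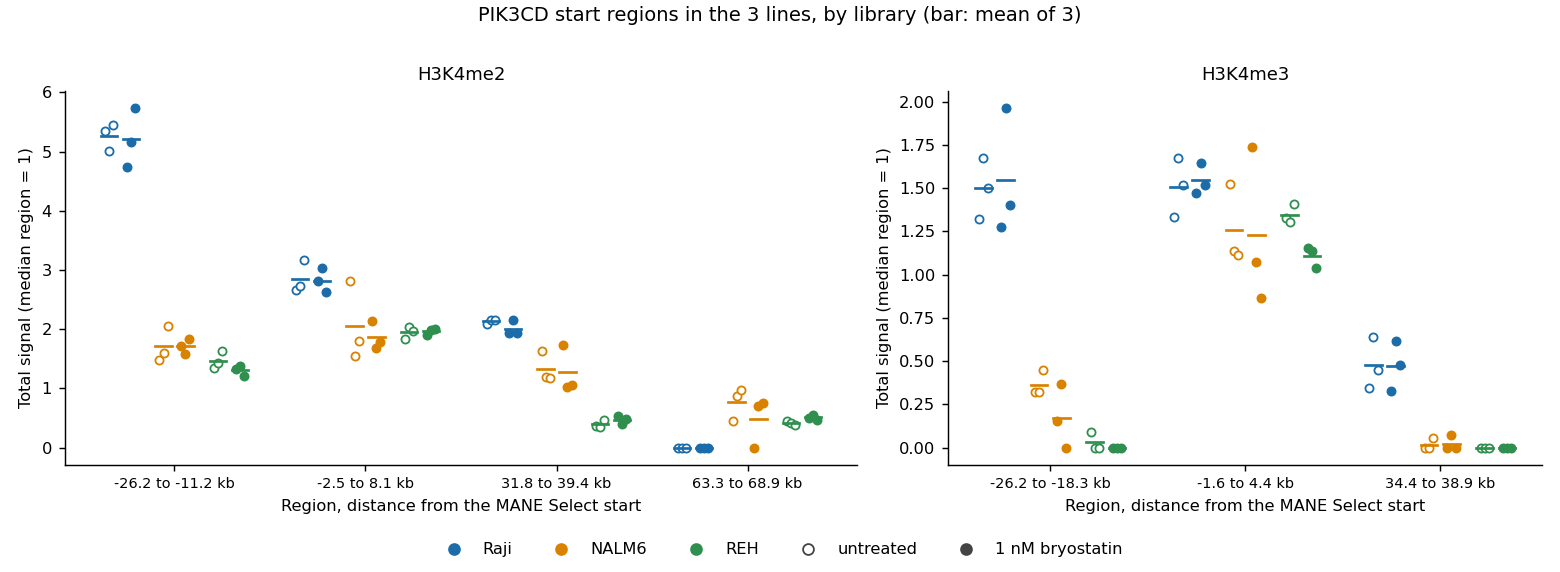
Total signal on the y axis, relative to the median region, of the PIK3CD start regions, placed on the x axis by their distance in kb from the MANE Select start, for H3K4me2 (left) and H3K4me3 (right). Points are libraries, open untreated and filled with 1 nM bryostatin, and bars are means of 3. Raji leads at the upstream start, with 5.01 to 5.45 in untreated H3K4me2 libraries, and is at 0 at the farthest downstream region, where NALM6 and REH have a peak.

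Across the lines, the untreated comparisons called these regions at rates to be read against all regions. A gene can hold several regions, so these are counts of regions and not of genes. For H3K4me2 between Raji and REH 7 of 12 regions of the 9 genes passed, all higher in Raji, where 46.8% of all 7999 regions passed and 23.8% were higher in Raji. The 12 regions came from 8 genes, and those that passed lay only at LYN, SYK, PLCG2 and PIK3CD, with more than 1 each at PLCG2 and PIK3CD. For H3K4me3 4 of 6 passed, 2 in each direction, where 51.3% of 6729 regions passed and 23.8% were higher in Raji. Between Raji and NALM6 5 of 11 H3K4me2 and 3 of 7 H3K4me3 regions passed, all higher in Raji, against 18.9% and 20.2% of all regions, with 8.26% and 8.43% higher in Raji. Of the H3K4me3 regions 1, downstream of CD79A, lies at the start of ARHGEF1 (1.73-fold, adjusted p = 0.00838). Between NALM6 and REH 2 of 12 H3K4me2 regions passed, 1 in each direction, and 2 of 5 H3K4me3 regions passed, both lower in NALM6, against 11.4% and 7.15% of all regions, with 6.08% and 2.99% higher in NALM6. The median difference over the regions of the 9 genes was 0.51 for H3K4me2 and -0.02 for H3K4me3 between Raji and REH, 0.64 and 0.71 between Raji and NALM6, and -0.18 and -0.21 between NALM6 and REH. The medians over all regions lay between -0.04 and 0.03. Without NALM6 replicate 1 the calls rose to 9 and 10 between Raji and NALM6 and to 7 and 5 between NALM6 and REH, for H3K4me2 and H3K4me3. Calls over all regions rose as well, to 2197 of 6675 and 3861 of 8556 between Raji and NALM6 and to 2730 of 8075 and 3147 of 7033 between NALM6 and REH.

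The fits only hold regions called in every library, so they leave out contrasts such as LYN H3K4me3 in REH. Over all 9 genes, with a missing peak as 0, the gene body signal of Raji and REH did not overlap at 4 genes for H3K4me2, all higher in Raji, and at 8 for H3K4me3, 6 of them higher in Raji, against 54.9% and 53.2% of all genes with signal in any of the 6 libraries. Raji and NALM6 did not overlap at 5 and 7 genes, all higher in Raji, against 39% and 46.7%. NALM6 and REH did not overlap at 3 and 6 genes, against 39.7% and 34.7%. The exact permutation test of 3 libraries against 3 cannot give a p below 0.1, which is the value for each gene without overlap.

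**Figure D4:**
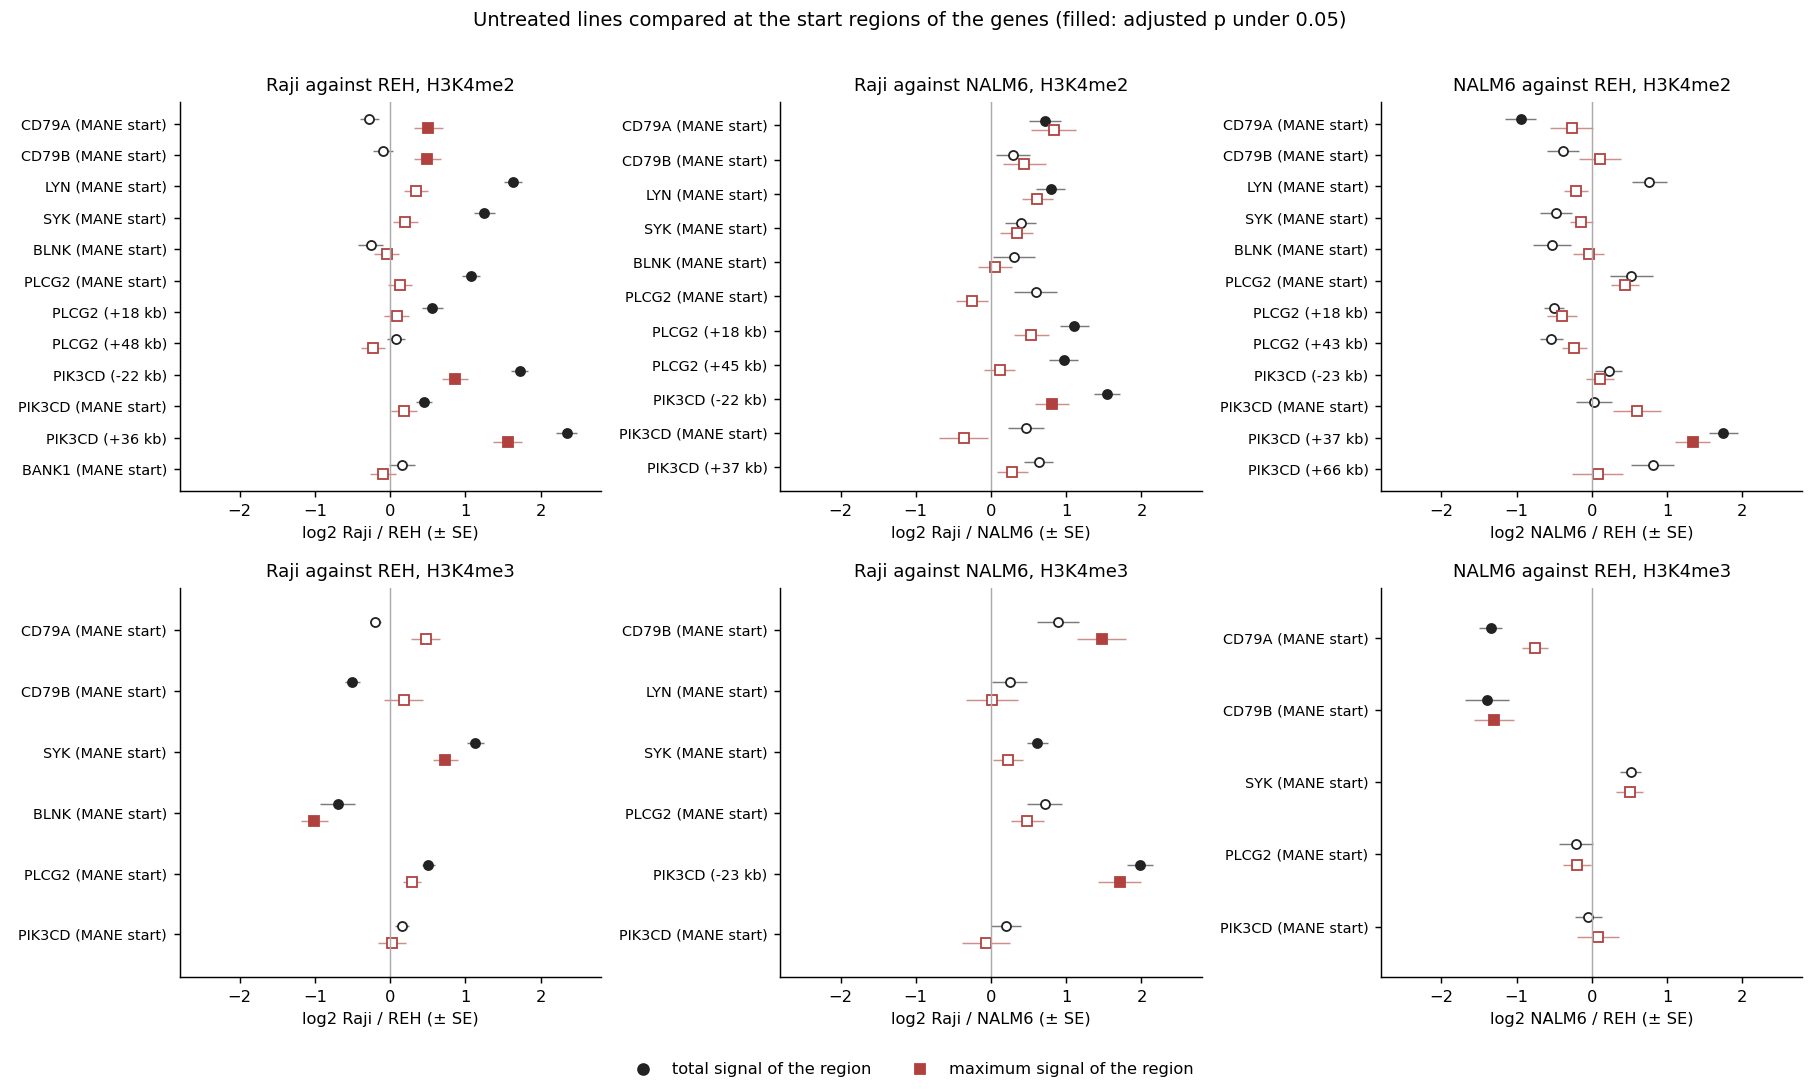
Differences between untreated lines at the start regions of the genes, as log2 ratio on the x axis with SE bars, for total signal (circles) and maximum signal (squares), filled where the adjusted p is under 0.05. Numbers in kb give the distance of a region's middle from the MANE Select start. LYN, SYK and PLCG2 in Raji against REH lie far from 0 by the total of H3K4me2, at 1.63, 1.25 and 1.08, and close to it by the maximum, at 0.35, 0.20 and 0.13, while the upstream and nearer downstream PIK3CD starts keep both.

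Bryostatin changed few of these regions by the test. In Raji 0 of 14 H3K4me2 and 0 of 13 H3K4me3 regions passed, where 0% and 0.155% of all regions did. In NALM6 0 of 8 and 0 of 3 passed, against 0% of all regions for both marks. In REH 0 of 16 H3K4me2 regions passed against 1.45% of all, and 1 of 6 H3K4me3 regions against 1.67%. At an unadjusted p under 0.05 there were 1, 1, 1, 0, 1 and 2 regions of the 9 genes in the same order. The NALM6 fits were the least able to show a change, since of changes of 1 on the log2 scale put into data made for testing they recovered 23% and 33%, against 70% and 84% in Raji and 96% and 99% in REH. Every treated H3K4me2 library of Raji was deeper than every untreated one, at 15.6 to 18.8 M against 6.7 to 13.9 M reads.

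The region that passed was CD79B in REH. H3K4me3 over CD79B was 2.1, 2.3 and 2.52 in the untreated libraries and 1.69, 1.85 and 1.75 with bryostatin, without overlap. It fell 1.3-fold (chr17:63927481-63933880, log2 -0.38, SE 0.08, adjusted p = 0.0414), and the adjusted p was 0.00795 with the replicate number as a block. By the maximum the change was -0.29 (adjusted p = 0.654) and by the mean per called base -0.15 (adjusted p = 0.964), and leaving out untreated replicate 2 or any 1 of the treated libraries ended the call. PIK3CD at its MANE Select start had H3K4me3 of 1.33, 1.31 and 1.41 untreated and 1.16, 1.14 and 1.04 with bryostatin, also without overlap, with a log2 difference of -0.28 (SE 0.07, adjusted p = 0.0637). BLNK had -0.30 in REH (SE 0.17, adjusted p = 0.585) and -0.44 in Raji (SE 0.18, adjusted p = 0.83). With the block the calls over all regions rose from 14 to 132 for H3K4me3 in Raji, from 157 to 305 for H3K4me2 in REH and from 121 to 202 for H3K4me3 in REH, with none, none and 1 among the 9 genes.

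Single genes gave the same picture. The gene body signal of treated and untreated libraries did not overlap at 0 of the 8 genes with signal in all 6 Raji libraries for either mark, where 9.82% of all genes did not for H3K4me2 and 11.5% for H3K4me3. In NALM6 it was 0 of 6 and 0 of 3 genes against 9.29% and 4.59%, and in REH 2 of 9 and 2 of 6 against 11.9% and 15.5%. The REH genes were CD79A, 1.17-fold higher with bryostatin for H3K4me2, BTK, at 0.702 times the untreated level for H3K4me2, and CD79B and PIK3CD, at 0.765 and 0.806 times for H3K4me3. In the region fits CD79A was 1.01-fold higher (log2 0.02, adjusted p = 0.982) and the MANE Select region of BTK, at means of 0.482 untreated and 0.463 treated, did not pass either (log2 -0.11, adjusted p = 0.875). The BTK sum also holds the TIMM8A start, at means of 0.249 and 0.0831, and the start shared with RPL36A, at 0.307 and 0.183. Each of the 4 genes has an exact permutation p of 0.1, the smallest for 3 against 3 libraries. H3K4me3 at SYK in NALM6 did not overlap either, but treated replicate 3, with 5.41 M reads, had no peak there. For H3K27me3 in REH the start signal of LYN was lower in all 3 treated libraries, at a mean of 0.163 against 0.24 (exact permutation p = 0.1), as at 8.61% of the 1858 genes with a peak in all 6 libraries. The H3K27me3 scale rests on 48 regions that all 18 libraries share.

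The response to bryostatin was also compared between lines with an interaction term. None of the regions of the 9 genes passed, with 12 and 6 regions tested between Raji and REH, 8 and 3 between Raji and NALM6 and 8 and 2 between NALM6 and REH for H3K4me2 and H3K4me3. Of all regions, 0.0275% and 0.0776% passed between Raji and REH and 0% in the other 4 fits. At an unadjusted p under 0.05 there were 2 regions of the genes, both for H3K4me3 between Raji and REH. The fall at CD79B in REH is therefore not shown to differ from the other lines.

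**Figure D5:**
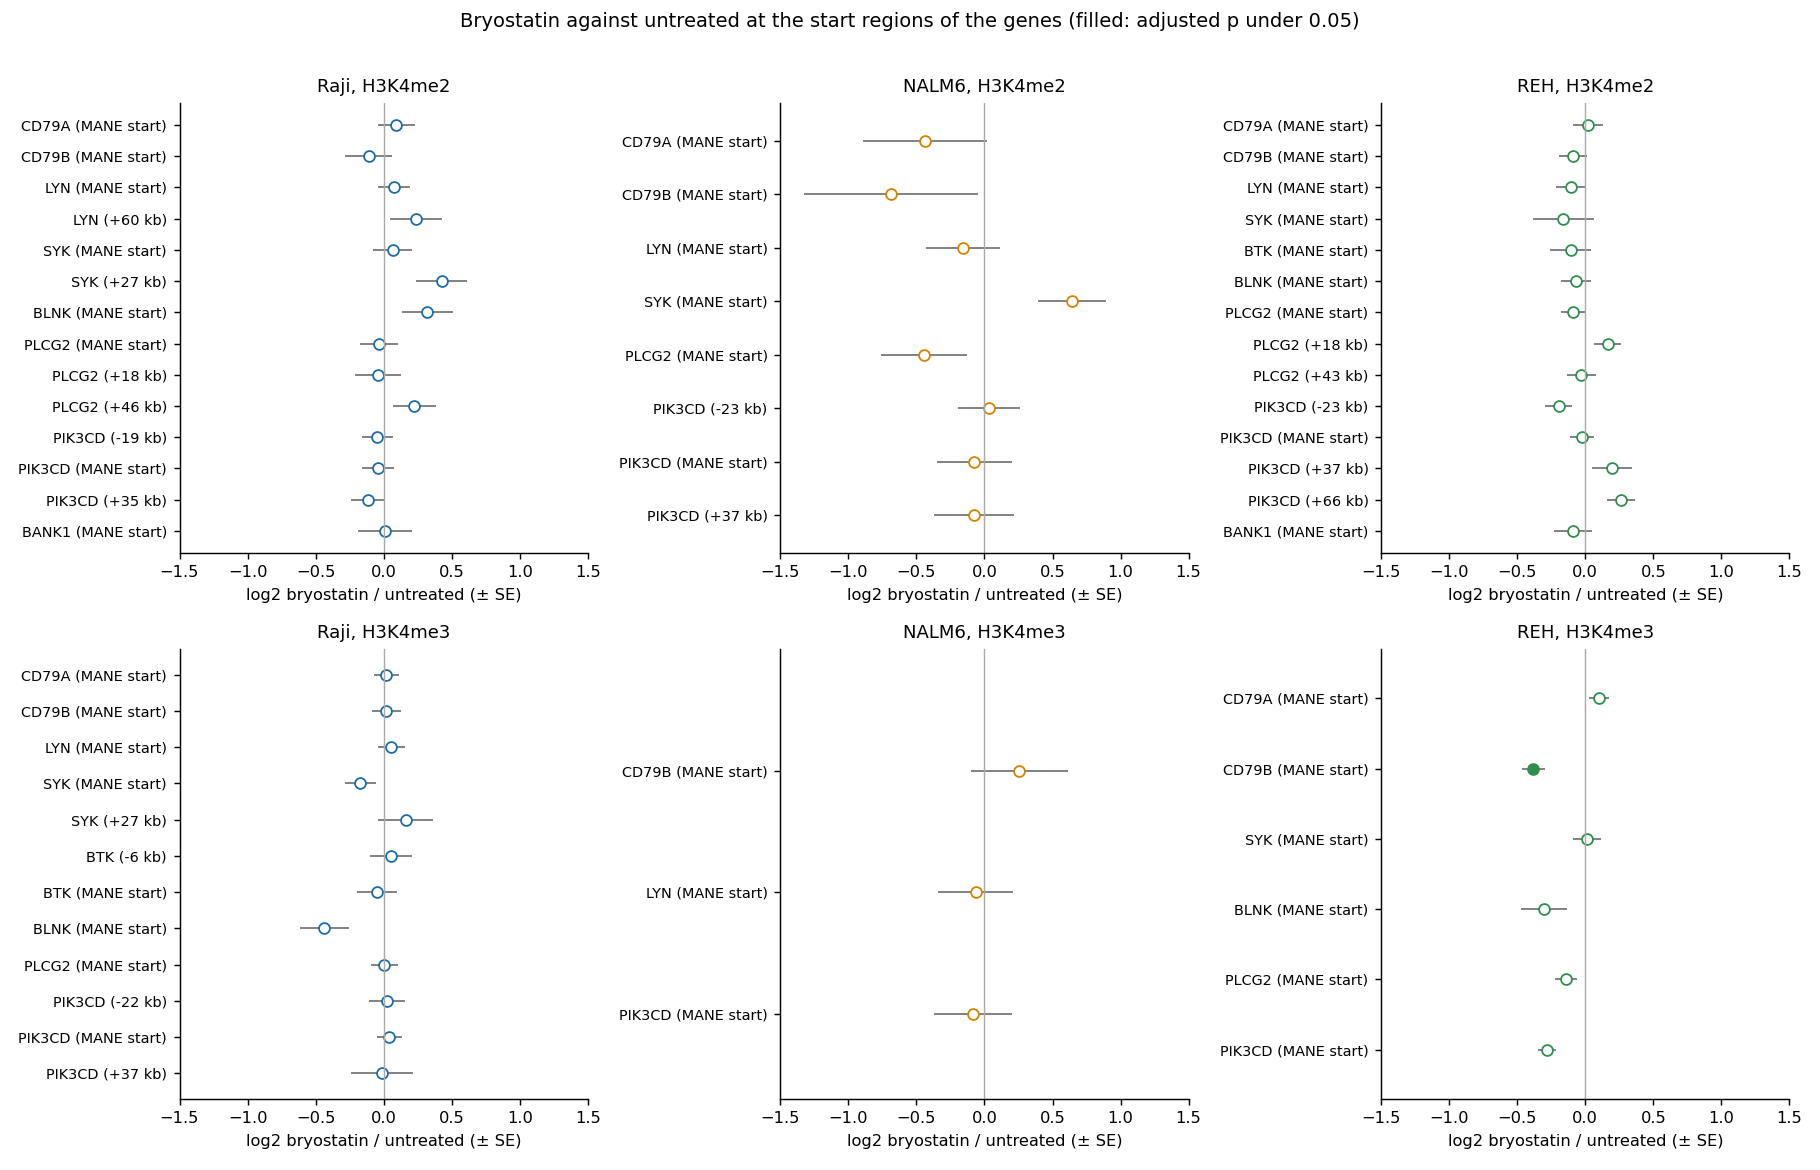
Change with 1 nM bryostatin at the start regions of the genes, as log2 ratio to untreated on the x axis with SE bars, by line and mark, filled where the adjusted p is under 0.05. Only H3K4me3 at CD79B in REH, at -0.38, is filled, and the bars of NALM6 are the widest, with an SE of up to 0.64 at CD79B for H3K4me2.

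A list of 28 other genes of the pathway, among them co-receptors, phosphatases, adaptors and effectors, was read at the start regions. This list, too, was chosen with earlier results of these data known. Bryostatin raised 1 of 27 in Raji H3K4me3, PTPN6, which encodes the phosphatase SHP-1 (1.73-fold, log2 0.79, SE 0.12, adjusted p = 0.0452), where 0.155% of all regions passed. The call ended by the maximum, by the mean per called base, with no trend, and without untreated replicate 3 or treated replicate 2 or 3. In REH H3K4me3 it raised 2 of 18, the inhibitory co-receptor CD22 (1.54-fold, adjusted p = 0.00479) and again PTPN6 (1.31-fold, adjusted p = 0.00806), where 1.67% of all regions passed. By the mean per called base both calls ended. None of the 28 passed in the other 4 comparisons, with 27, 15, 13 and 22 tested for Raji H3K4me2, NALM6 H3K4me2, NALM6 H3K4me3 and REH H3K4me2, and none fell. The medians over the list lay between -0.04 and 0.09.

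Between untreated lines the list moved in both directions. Raji exceeded REH at 5 of 22 genes for H3K4me2 and at 9 of 19 for H3K4me3, with 0 and 4 lower, where 23.8% of all regions were higher in Raji for each mark. For H3K4me3 the smallest adjusted p were for CD72, an inhibitory co-receptor (3.76-fold for H3K4me3, adjusted p = 2.18e-06), CD22 (2.66-fold, adjusted p = 1.45e-05) and PRKCB, a protein kinase C of B cells (1.62-fold, adjusted p = 0.000124), all higher in Raji, and for DOK3, an inhibitory adaptor whose region also covers DDX41, 2.82-fold lower in Raji (adjusted p = 7.25e-07). Against NALM6, Raji was higher at 1 and lower at 1 of 16 genes for H3K4me2 and higher at 2 and lower at 2 of 16 for H3K4me3. PIK3AP1, an adaptor of the kinase that holds PIK3CD, was 1.83-fold higher in Raji than in NALM6 for H3K4me3 (adjusted p = 0.0126) and 1.76-fold higher in REH than in NALM6 (adjusted p = 0.0109). INPP5D, the phosphatase that removes the PIK3CD product, was 1.76-fold higher in NALM6 than in REH (adjusted p = 0.0278), and no other gene of the list passed between NALM6 and REH for H3K4me3, with none of 16 for H3K4me2.

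The H3K4me3 patterns of LYN and BTK, which had the largest differences between Raji and REH among the 9 genes, were set against all protein-coding genes over the 18 H3K4me3 libraries. The log2 start signal with 0.05 added differed by 3.60 for LYN and 1.80 for BTK. The genes most like LYN were SS18L2, DYNLRB1 and STARD4, with Pearson correlations of 0.956, 0.953 and 0.952. Those most like BTK were PPFIBP1, ZRANB2 and TMEM126A, with 0.991, 0.986 and 0.983, and each of the 3 had no peak in the same 5 libraries as BTK. These values describe 18 libraries that share depth and line, and they carry no test.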

How the data were processed

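Cut&Tag libraries of 3 marks in 3 lines, untreated or with bryostatin, gave 54 libraries with 3 replicates. Per the submitters' notes and the paper's methods, the authors trimmed reads with Trim Galore, aligned them to hg38 with Bowtie2, scaled coverage to RPKM and called peaks with SEACR per library; versions were not stated. The deposited values are the total and maximum signal of each peak. In 48 libraries they follow RPKM in 10 bp bins, and the 6 libraries of NALM6 replicate 1 carry another scaling.

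Peaks overlapping by at least 1 bp were merged over the libraries of a comparison. Regions called in every library were tested on log2 total signal, centred on the median region, by limma 3.58.1 with eBayes and its trend option (R 4.3.3), with Benjamini-Hochberg adjustment at 0.05 over all regions. Gene values were divided by the library's median over shared regions, those that all 18 libraries of a mark hold, which were 3214 for H3K4me2, 3505 for H3K4me3 and 48 for H3K27me3. A peak that touches a window counts whole. Exact two-sided permutation tests were used for single genes. The fit was tested on simulated data. Starts came from GENCODE 44 and sequences from RefSeq.

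All 9 genes were described, and from the 28 pathway genes at most 4 per comparison were named, by smallest adjusted p. The genes and lists were chosen with earlier results of these data known. Alternatives were a replicate block, leaving out each library, the maximum signal, the mean per called base, quantile normalization, no centring, eBayes with no trend, the inclusion of regions that 3 or more of the 6 libraries held, and for starts a 2 kb window, the MANE Select start, 3 of 3 libraries and fewer peaks. Same-numbered treated and untreated libraries deviated together, with correlations above 0.1, in every line and mark but Raji H3K4me2 (0.417, -0.25 and -0.308). The main fits and the permutation tests did not use this pairing, and only the replicate block did. Libraries of different lines share only a number. IgG libraries were not used here.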

Additional observations from a re-analysis of the deposited data

How the results depend on the processing

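The call of single regions, and its direction where the test was passed, held in 2166 alternative values. This number includes regions that passed in neither the main fit nor the alternative, where no call could be lost. It therefore does not measure how stable the calls were. Another 62 came to pass the test, 79 no longer passed, and 9 that passed in the main fit or in the alternative changed sign. The cause of these changes was not tested. The counts of regions of the 9 genes called between lines moved most. By the maximum, by the mean and with no centring, the regions tested were those of the main fits. Calls over all regions stand here only beside the counts without the NALM6 libraries of the other scaling. The other counts describe the settings and are not results about the genes. By maximum signal they were 4 (H3K4me2) and 2 (H3K4me3) for Raji against REH, 1 for Raji against NALM6 H3K4me2, and 1 and 1 for NALM6 against REH. By mean signal per called base they were 2 and 1, 1, and 1 and 0. With no centring they were 2 for Raji against REH H3K4me3 and 0 in the comparisons with NALM6, whose replicate 1 has another scale. With regions called in 3 or more of the 6 libraries, which adds regions, they were 8 for Raji against REH H3K4me3, 8 and 8 for Raji against NALM6 and 5 and 7 for NALM6 against REH. Without the NALM6 libraries of the other scaling they were 9, 10, 7 and 5 in the same 4 comparisons, where the calls over all regions rose to 2197 of 6675, 3861 of 8556, 2730 of 8075 and 3147 of 7033. With both treatments in the fit they were 1 and 1 for H3K4me3 in Raji against NALM6 and NALM6 against REH. Leaving out 1 library gave 2 to 9 and 1 to 10 for Raji against NALM6, and 1 to 7 and 1 to 5 for NALM6 against REH. The highest were those without NALM6 replicate 1, and the lowest those without Raji replicate 1 or 3, without Raji replicate 2, without any other library but NALM6 replicate 3, and without NALM6 replicate 2 or REH replicate 1 or 3.

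The signs that changed were for Raji against REH by maximum signal, at 0.49 for CD79B and 0.50 for CD79A (H3K4me2) and 0.18 for CD79B (H3K4me3). By the mean they were -0.36 for PIK3CD at its MANE Select start, -0.415 for PLCG2 at its start and -0.0168 for LYN (H3K4me2) and -0.0293 for SYK (H3K4me3). Against NALM6 the mean gave -0.271 for the inner PLCG2 region and -0.506 for SYK H3K4me3. Among the 2166 values, the sign changed without a call in either fit in 43 of 152 by the maximum, 56 by the mean, 30 with no centring, 5 with quantile normalization, 110 of 1146 on leaving out 1 library, 11 of 67 without the NALM6 libraries of the other scaling and 1 of 39 with both treatments.

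For bryostatin in REH H3K4me3 the count was 0 by the maximum, by the mean and with no trend, 2 with quantile normalization, and 0 to 3 on leaving out 1 library. It was 3 without untreated replicate 3 and 0 without untreated replicate 2 or any treated library. Genes whose gene body signal did not overlap were 1 in Raji H3K4me3 by the maximum and 1 with no flanks, and 1 each in NALM6 and REH H3K4me2 by the maximum. Leaving out 1 library gave 0 to 2 in Raji for both marks, 0 to 2 and 0 to 1 in NALM6 and 2 to 4 in REH H3K4me3.

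Start peaks depended on the rule in NALM6 and REH. In untreated NALM6 H3K4me3 they were at 5 genes when 3 of 3 libraries were required, 3 with only the peaks above the library's median and 3 with equal numbers of peaks. In treated NALM6 they were at 3, 3 and 3, and for H3K4me2 at 5 with 3 of 3 libraries. H3K27me3 in NALM6 came to 0 under all 3 rules untreated, and treated to 0 with 3 of 3 libraries or equal numbers. H3K4me3 in REH was at 4 untreated and 3 treated with only the peaks above the median. Requiring a peak in both of the libraries left after dropping 1 gave 5 to 8 and 3 to 7 in NALM6 H3K4me3, 5 to 9 in treated H3K4me2 and 0 to 1 in H3K27me3 with either treatment.

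Under the replicate block, the calls at the 9 genes were 0 in 5 bryostatin comparisons and 1 in REH H3K4me3, 0 for every difference in response, and 8 and 4, 5 and 2, and 2 and 2 between lines. Over all regions the block gave 3592 and 3401, 736 and 692, and 422 and 158 calls between lines, where the libraries share only a number.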
